A study of Mus musculus with 11 samples.

Results

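The Rtl1-antisense miRNAs are the mature miRNAs of 5 hairpins, miR-431, miR-433, miR-127, miR-434 and miR-136, which lie opposite the coding sequence of the gene Rtl1 in the imprinted Dlk1-Dio3 domain. Both arms of each hairpin were taken by name, giving 10 of the 1907 mature miRNA names in the count tables, and all 10 passed the filter on low counts among 479 miRNAs tested. Small RNA was sequenced from the brains of 11 male Balb/cOlaHsd mice, 3 months old by the labels, collected 3 days after surgery. In 5 mice the left middle cerebral artery was closed permanently by thermocoagulation (pMCAO), a stroke model without reperfusion. In 6 sham mice the artery was exposed and lifted but not closed, all brains were perfused, and no transgene is described for any mouse. By the labels the pMCAO tissue was peri-ischemic cortex, the rim around the ischemic core, and the sham tissue simply cortex, while the methods describe tissue of the peri-ischemic region for both groups and an age of 3 to 6 months. If the dissection did differ as labelled, it cannot be told apart from the occlusion.

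In an imprinted domain, genes are active from only the chromosome of a given parent. In the Dlk1-Dio3 domain, Rtl1, a retrotransposon-derived gene that makes a protein, is expressed from the paternal chromosome, while the non-coding RNAs and miRNAs are expressed from the maternal chromosome. Because the antisense miRNAs are fully complementary to the Rtl1 mRNA, they are known to guide its cleavage, and the miRNAs of this domain are abundant in the brain. Among them, miR-127 is known for its part in placental development and miR-431 for its part in axon growth of injured sensory neurons.

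The mature sequences are shown because they carry the match to Rtl1 and the seed of each member. They are written 5′ to 3′ with the seed, bases 2 to 8, in capitals, and were taken from RefSeq for GRCm38.p6, where all 10 names were found. The prefix mmu marks a mouse miRNA and is left out below.
mmu-miR-431-5p: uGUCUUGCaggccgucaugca
mmu-miR-431-3p: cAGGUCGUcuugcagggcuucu
mmu-miR-433-5p: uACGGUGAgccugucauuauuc
mmu-miR-433-3p: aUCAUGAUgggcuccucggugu
mmu-miR-127-5p: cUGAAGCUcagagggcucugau
mmu-miR-127-3p: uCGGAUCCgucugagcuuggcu
mmu-miR-434-5p: gCUCGACUcaugguuugaacca
mmu-miR-434-3p: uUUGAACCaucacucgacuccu
mmu-miR-136-5p: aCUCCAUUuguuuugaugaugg
mmu-miR-136-3p: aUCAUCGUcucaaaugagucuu
Over its whole length, each of the 10 was the exact reverse complement of a stretch of the Rtl1 coding sequence, as follows from its position opposite it. No seed was shared between members or with another mature mouse miRNA in the RefSeq table, so the group is joined by position and not by a common set of seed matches.

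The hairpins lie on the plus strand of chromosome 12, build GRCm38, within 4942 bp. In order along the strand they are Mir431 at chr12:109590447-109590537, Mir433 at chr12:109591715-109591838, Mir127 at chr12:109592846-109592915, Mir434 at chr12:109594506-109594599 and Mir136 at chr12:109595327-109595388. All 5 fall inside the Rtl1 coding sequence, which runs on the minus strand through chr12:109590172-109595403 and is 5232 bp long, so relative to Rtl1 they are exonic and antisense. Since Rtl1 is read in the opposite direction, Mir136 lies near the start of its coding sequence, with the site of miR-136-3p at base 17, and Mir431 near the end, with the site of miR-431-5p at base 4925. On the same plus strand the non-coding RNA gene Meg3 ends upstream at base 109571726, and Rian begins downstream at base 109603940.

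Other miRNA names of the same stretch had no counts. miR-432, annotated between Mir434 and Mir136, and miR-3071-5p and miR-3071-3p, whose hairpin covers Mir136 on the opposite strand, were at 0 in all 11 libraries. The sequence of miR-432 was also an exact reverse complement of the Rtl1 coding sequence, with a seed that no other mouse miRNA shared. These features are therefore not particular to the members. A count of 0 allows up to 3 counts, which is 1.29 to 4.03 CPM (counts scaled to a common library size) depending on the library. This limit covers counting error only, and whether the counting used strand is not given in the sources used here.

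Library totals ran from 1429037 to 2319810 counts in sham and from 744877 to 1411620 in pMCAO, so the ranges of the groups did not meet. Levels are given as CPM after TMM scaling, which sets libraries to a common level by the bulk of their miRNAs. For the weakest member, miR-433-5p, the fewest counts in a library were 19, a level of 25.5 CPM before TMM scaling with an exact 95% interval of 15.4 to 39.8 CPM for counting error. miR-434-3p and miR-136-5p had at least 7630 and 6701 counts. Markers of the labelled tissue were present, with the neuronal miR-124-3p the most abundant miRNA at 209811 ± 22259 CPM in sham (SD, n = 6). miR-451a, which is made in red blood cells, was at 5115 CPM in Sham 1 and at 42.7 to 252 CPM in the other 5 sham libraries. In pMCAO it was at 620 to 4465 CPM, so every pMCAO library lay above those 5 sham libraries. The medians were 157 CPM in sham and 1414 CPM in pMCAO. Without Sham 1, 0 of the 10 members were called and 2, miR-434-3p and miR-136-5p, had an unadjusted p under 0.05. The labels name no batch, and p-values weigh the group difference against the spread between these libraries.

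miR-434-3p and miR-136-5p dominated the group in sham cortex. miR-434-3p stood at 11089 ± 1609 CPM (SD, n = 6), rank 19 of the 479 miRNAs by mean level over all libraries, and miR-136-5p at 10198 ± 725 CPM, rank 22. Of all counts of the 10 members, this pair made up 75.5 ± 2.56% in sham and 73.5 ± 2.80% in pMCAO. Their sham ranges overlapped, so their order is not fixed by these libraries.

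A step down, miR-127-3p had 2410 ± 358 CPM and miR-136-3p 1346 ± 127.1 CPM in sham. The range of miR-127-3p touched no other, and that of miR-136-3p, from 1193 CPM, met only the highest miR-127-5p library, Sham 1 at 1203 CPM. miR-433-3p (1047 ± 51.7 CPM), miR-127-5p (1040 ± 89.6 CPM) and miR-434-5p (861 ± 192 CPM) followed, with overlapping ranges. The remaining 3 were far weaker. miR-431-5p had 107 ± 11.8 CPM, miR-431-3p 40.3 ± 12.4 CPM and miR-433-5p 26.4 ± 8.31 CPM, the last 2 with overlapping ranges. All members are 21 or 22 bases long, so no length correction was made, and differences in ligation or amplification between sequences are part of these levels.

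**Figure D1:**
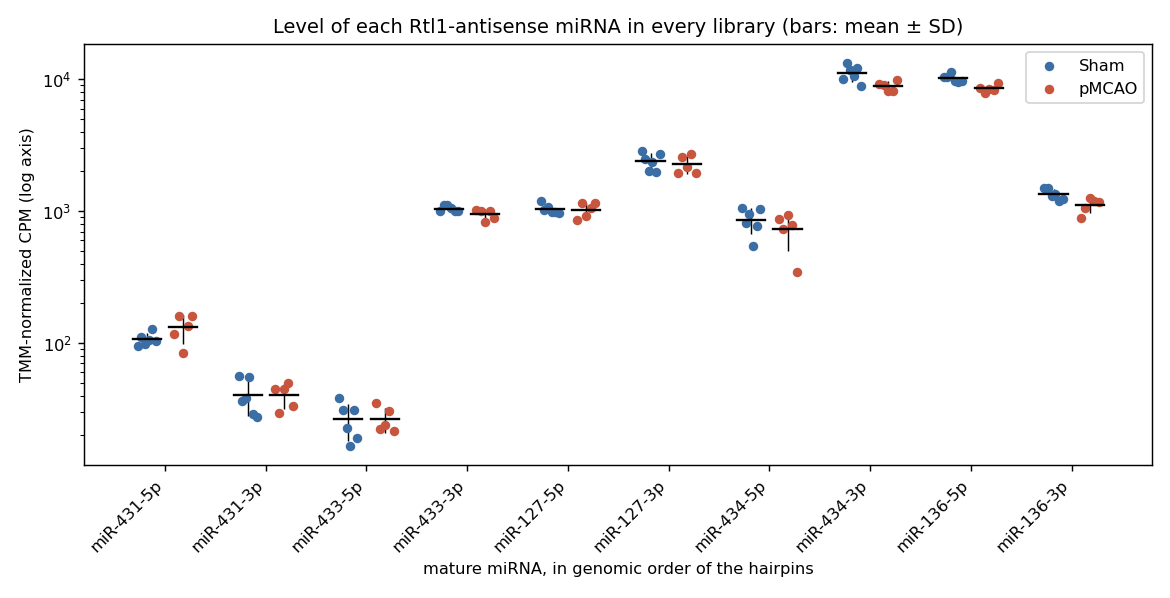
Level of each Rtl1-antisense miRNA in every library, as TMM-normalised CPM on a log axis, with members in the genomic order of their hairpins. Points are libraries (6 Sham, 5 pMCAO) and bars give the mean ± SD. The pMCAO points of miR-136-5p lie below all 6 Sham points, the highest at 9453 CPM against a lowest Sham value of 9495 CPM, and the groups overlap for the other 9 members.

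The comparison of pMCAO with sham asked whether occlusion altered the levels of these miRNAs 3 days later. None of the 10 members passed an adjusted p of 0.05 (edgeR quasi-likelihood fit, Benjamini-Hochberg over 479 miRNAs), where 7.1% of all tested miRNAs did, 4.38% higher and 2.71% lower. At an unadjusted p under 0.05, 3 members were lower in pMCAO and 0 higher, miR-434-3p, miR-136-5p and miR-136-3p, against 24.4% of all tested miRNAs in either direction and 11.5% in the lower direction. DESeq2 also called 0 of the 10, with the same 3 under an unadjusted p of 0.05. This count of 3 fell to 1 without Sham 2 (miR-136-5p), without pMCAO 2 (miR-434-3p) or with scaling by total counts alone (miR-431-5p, higher). It was 2, miR-434-3p and miR-136-5p, with upper-quartile scaling, at least 10 counts in every library or the replicate number as a block. The same 2 remained, without miR-136-3p, on leaving out Sham 1, Sham 3, Sham 4, pMCAO 1 or pMCAO 5. The count rose to 4 without Sham 5 and without pMCAO 3, each time by the addition of miR-431-5p, higher in pMCAO. The same bulk tissue cannot separate fewer cells that make a miRNA from less of it per cell.

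miR-136-5p was the member with the smallest p. In sham its lowest, median and highest levels were 9495, 10079 and 11436 CPM, and the pMCAO libraries 1 to 5 had 8545, 7923, 8508, 8371 and 9453 CPM. The groups did not overlap, with the highest pMCAO library just under the lowest sham library. The mean was 10198 ± 725 CPM in sham (SD, n = 6) and 8560 ± 557 CPM in pMCAO (n = 5), a log2 fold change of -0.25 (SE 0.0872, 95% interval -0.44 to -0.07, edgeR adjusted p = 0.0994). The size depended on scaling, with -0.08 for total counts alone, and the alternatives gave adjusted p-values from 0.0629 to 0.640.

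It was the 1 member of 10 whose groups did not overlap, where 7.52% of all tested miRNAs did not and 3.34% were lower. The separation was present with TMM scaling and with DESeq2's size factors, and absent with upper-quartile scaling and with total counts alone, where 0 of 10 members separated.

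The other arm, miR-136-3p, ran from 1193 to 1495 CPM in sham with a median of 1334 CPM, and had 881, 1066, 1260, 1203 and 1180 CPM in pMCAO. All 5 pMCAO libraries lay below the sham median, but 2 of them reached into the sham range. The log2 fold change was -0.27 (SE 0.117, 95% interval -0.52 to -0.02, edgeR adjusted p = 0.172), and -0.09 with total counts alone (adjusted p = 0.685).

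miR-434-3p, the most abundant member, had sham levels of 8832 CPM at the lowest, 11125 CPM at the median and 13274 CPM at the highest. The pMCAO libraries had 9155, 9021, 8225, 8186 and 9968 CPM. All 5 lay below the sham median, and 3 were inside the sham range because Sham 6, at 8832 CPM, was low. The mean went from 11089 ± 1609 CPM (SD, n = 6) to 8911 ± 739 CPM (n = 5), a log2 fold change of -0.32 (SE 0.113, 95% interval -0.56 to -0.07, edgeR adjusted p = 0.111). With total counts alone it was -0.13, and across the alternatives the adjusted p ran from 0.0973 to 0.481.

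Its partner arm miR-434-5p was one of the most variable members. It ran from 543 to 1050 CPM in sham with a median of 881 CPM, and had 869, 733, 931, 783 and 343 CPM in pMCAO. The last library, pMCAO 5, was low for this arm and the highest pMCAO library for miR-434-3p. The log2 fold change was -0.23 with a wide 95% interval of -0.73 to 0.26 (edgeR adjusted p = 0.636). Without pMCAO 5 it was -0.04, and with total counts alone -0.07.

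Among the abundant members, miR-127 gave the fold changes closest to 0 on both arms. miR-127-3p ran from 1991 to 2868 CPM in sham with a median of 2431 CPM, and had 1948, 2564, 2163, 2715 and 1959 CPM in pMCAO. miR-127-5p ran from 965 to 1203 CPM with a median of 1004 CPM, and had 855, 1146, 918, 1061 and 1156 CPM in pMCAO. On both arms the pMCAO libraries fell on either side of the sham median. The log2 fold changes were -0.09 (95% interval -0.37 to 0.20) and -0.02 (-0.26 to 0.23), and with total counts alone both turned positive.

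miR-433-3p varied least in sham, with a coefficient of variation of 4.94%. It ran from 999 to 1112 CPM in sham with a median of 1030 CPM, and had 1016, 1011, 824, 999 and 890 CPM in pMCAO. All 5 pMCAO libraries were below the sham median and 2 were within the sham range, at a log2 fold change of -0.14 (95% interval -0.35 to 0.07, edgeR adjusted p = 0.431) that turned to 0.03 with total counts alone. Its rare partner miR-433-5p, at 16.6 to 38.0 CPM in sham and 21.4 to 34.9 CPM in pMCAO, had a log2 fold change of 0.01 with an interval of -0.52 to 0.53.

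miR-431-5p had the highest log2 fold change of the group, the other 2 values above 0 being 0.01. Sham ran from 94.4 to 127.5 CPM with a median of 105 CPM, and the pMCAO libraries had 117, 160, 84.0, 134 and 161 CPM. Above the sham median lay 4 of the 5 pMCAO libraries, while pMCAO 3 was below every sham library. The log2 fold change was 0.30 (SE 0.166, 95% interval -0.06 to 0.65, edgeR adjusted p = 0.307), and 0.48 with total counts alone. miR-431-3p, at 27.3 to 55.8 CPM in sham and 29.6 to 50.1 CPM in pMCAO, had a log2 fold change of 0.01 with an interval of -0.49 to 0.51.

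**Figure D2:**
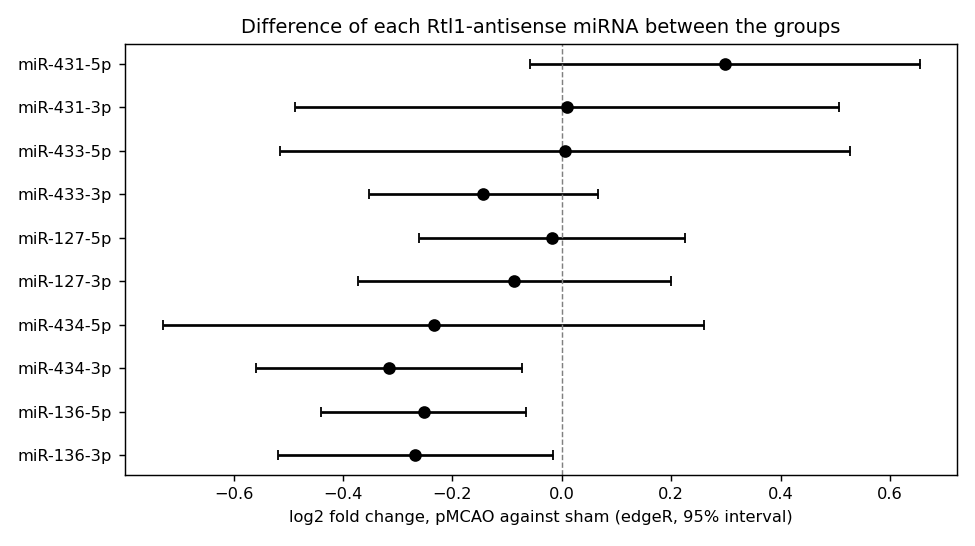
Log2 fold change of each member, pMCAO against sham, from edgeR, with its 95% interval, from miR-431 at the top to miR-136 at the bottom in genomic order. The intervals of miR-434-3p (-0.56 to -0.07), miR-136-5p (-0.44 to -0.07) and miR-136-3p (-0.52 to -0.02) lie below 0 before adjustment for 479 tests, and those of the other 7 members include 0.

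Taking the 10 together as a description, 7 had a log2 fold change below 0, against 49.7% of all tested miRNAs, and the median was -0.11, against 0.0015 over all 479. With total counts alone, which moved the median of all miRNAs to 0.18, 4 of 10 were below 0 and the members' median was 0.06, with 7 of 10 below the median of all miRNAs. Without pMCAO 5 the members' median was -0.05. Both arms of miR-434 and miR-136, the last hairpins along the strand, had values between -0.32 and -0.23, an order seen after the values were known and not tested. With total counts alone these 4 lay between -0.13 and -0.07, and without pMCAO 5 miR-434-5p was at -0.04.

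A share of all miRNA counts amounts to scaling by total counts alone. On this scale the members took a nearly constant part of each sham library, 2.58 to 2.69% with a mean of 2.66 ± 0.0387% (SD, n = 6). In pMCAO they took 2.44, 2.69, 2.37, 2.45 and 2.75%, a mean of 2.54 ± 0.170% (n = 5). There the shares were more spread out, with 3 libraries below the lowest sham library and 1 above the highest. The other 8 members, without miR-434-3p and miR-136-5p, took 0.651 ± 0.0702% in sham and 0.672 ± 0.0698% in pMCAO. On this scale the 2 leading members therefore carried the lower mean in pMCAO.

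Each hairpin kept its dominant arm in both groups. The ratio of the arms within a library does not depend on scaling, and it was compared as log2 of the 3p to 5p count with 0.5 added to each. For miR-433 the 3p arm made up 97.5 ± 0.805% in sham (SD, n = 6) and 97.3 ± 0.464% in pMCAO (n = 5), and it made 92.6 ± 2.22% and 92.3 ± 2.61% of miR-434 counts. For miR-127 it made 69.7 ± 3.13% and 68.7 ± 3.43%. The 5p arm led in the others, where the 3p arm made 27.3 ± 7.40% and 24.5 ± 8.04% of miR-431 counts and 11.7 ± 0.935% and 11.6 ± 1.42% of miR-136 counts.

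None of the 5 arm ratios differed between the groups beyond the spread of the libraries. The differences, pMCAO minus sham on the log2 scale, were -0.23 for miR-431, -0.20 for miR-433, -0.06 for miR-127, -0.03 for miR-434 and -0.02 for miR-136. The smallest of the 5 raw p-values was 0.418, for miR-433, and the Benjamini-Hochberg adjusted p was 0.944 for all 5 (exact permutation test, two-sided, 462 arrangements, smallest possible p 0.00216). For miR-136 the ratio was steady, from -3.13 to -2.80 in sham and from -3.28 to -2.76 in pMCAO, so both arms stood at a like distance in each library. In pMCAO 5 the ratio of miR-434 was 4.86, against 3.14 to 3.62 in the other 4 pMCAO libraries and 3.10 to 4.28 in sham.

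To see whether members differed from each other in response, each was set against miR-127-3p in the same library. The differences in this log2 ratio, pMCAO minus sham, were 0.35 for miR-431-5p, 0.13 for miR-431-3p, 0.14 for miR-433-5p, -0.06 for miR-433-3p, 0.06 for miR-127-5p, -0.19 for miR-434-5p, -0.22 for miR-434-3p, -0.17 for miR-136-5p and -0.19 for miR-136-3p. In all 9 the groups overlapped, the smallest raw p was 0.134, for miR-431-5p, and the adjusted p was 0.673 throughout (exact permutation test, two-sided, 9 comparisons). A different response of single members was not detectable with these libraries.

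**Figure D3:**
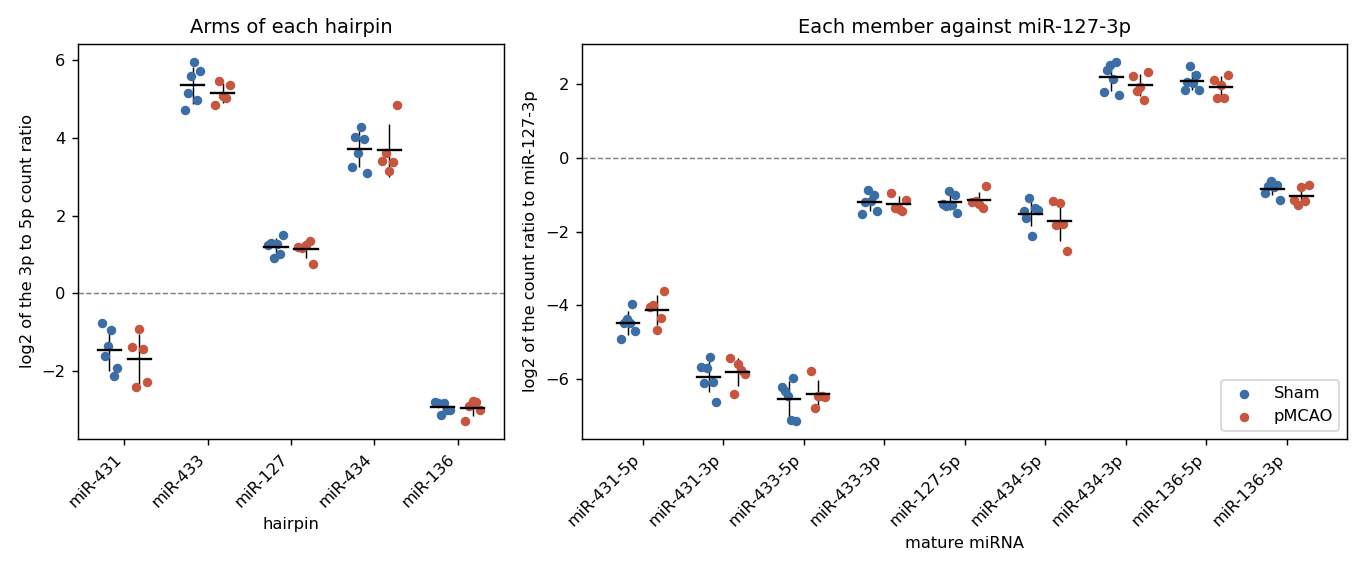
Left, log2 of the 3p to 5p count ratio of each hairpin; right, log2 of the count ratio of each member to miR-127-3p. Points are libraries (6 Sham, 5 pMCAO) and bars give the mean ± SD. The groups overlap in every column, and pMCAO 5 stands apart for miR-434 at 4.86.

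The rest of the Dlk1-Dio3 domain held no call by edgeR either. Of 97 other miRNA names of the domain, 71 were tested, and 0 were called higher or lower at an adjusted p of 0.05 by edgeR, with 8 at an unadjusted p under 0.05, where 7.1% and 24.4% of all tested miRNAs passed. DESeq2 and edgeR's robust fit each called 1, miR-300-3p, lower. Their median log2 fold change was -0.02, with 39 of 71 below 0. By segment, the medians were 0.02 for the 9 tested miRNAs upstream of Rtl1, -0.01 for the 3 single miRNAs downstream and -0.02 for the 59 of the miR-379 to miR-410 cluster.

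The 3 most abundant of these neighbours, all in the miR-379 to miR-410 cluster, lay close to 0. miR-376a-3p stood at 7648 ± 567 CPM in sham (SD, n = 6) and 7160 ± 1260 CPM in pMCAO (n = 5), at a log2 fold change of -0.10 (95% interval -0.34 to 0.15). miR-376b-3p and miR-495-3p had -0.09 and -0.10. The 8 under an unadjusted p of 0.05, a smaller share than over all miRNAs and named after their values were seen to complete the count, were 5 lower ones of the cluster, miR-379-5p, miR-411-5p, miR-376b-5p, miR-376a-5p and miR-300-3p, and 3 higher ones, miR-770-5p, miR-770-3p and miR-412-3p.

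The lowest was miR-300-3p at -0.46 (edgeR adjusted p = 0.0530) and the highest miR-412-3p at 0.52. As a share of counts the miR-379 to miR-410 cluster took 3.23 ± 0.261% in sham and 3.41 ± 0.442% in pMCAO, so per count of the cluster the Rtl1-antisense miRNAs stood at 0.829 ± 0.0690 in sham and 0.749 ± 0.0508 in pMCAO. The ranges of this ratio, 0.741 to 0.922 and 0.666 to 0.798, overlapped.

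**Figure D4:**
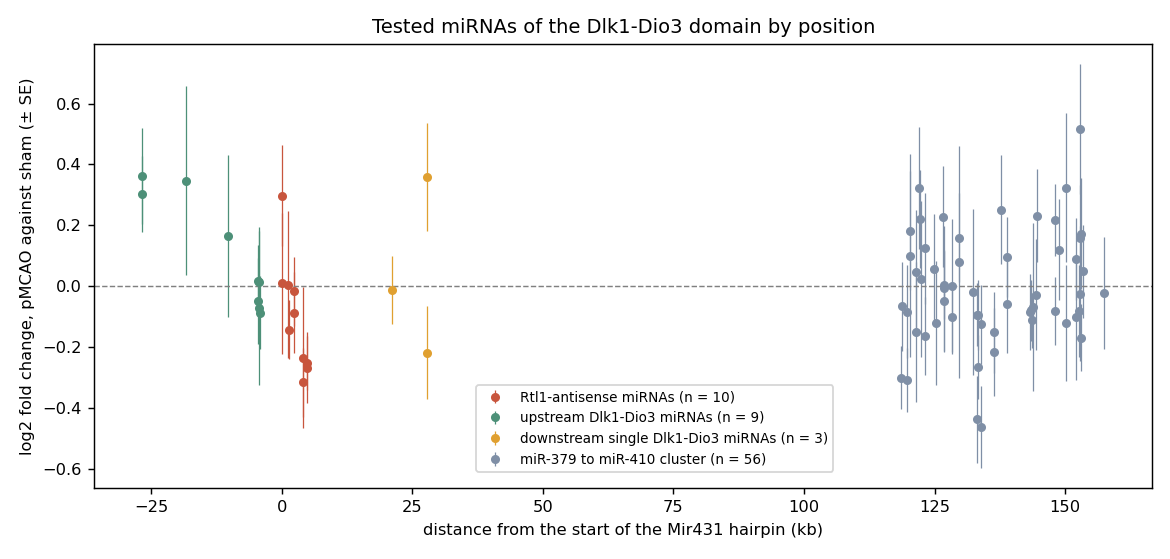
Log2 fold change (± SE, edgeR, pMCAO against sham) of the tested miRNAs of the domain by distance in kb from the start of the Mir431 hairpin, for the members with a position in RefSeq. Colours mark the Rtl1-antisense miRNAs (10), the miRNAs upstream (9), the single miRNAs downstream (3) and the miR-379 to miR-410 cluster (56 of 59), and all values lie between -0.46 and 0.52.

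Over the 11 libraries, the abundant members were set against 249 other miRNAs with a mean of at least 100 CPM. The measure was the SD of the log2 CPM ratio, where a small SD means that the ratio stayed nearly constant. That happens when both levels move together and also when both are steady, so it does not by itself show levels that vary together. miR-434-3p ran closest to miR-124-3p (SD 0.128), miR-411-5p (0.141) and miR-384-5p (0.141), with a median SD of 0.324 over all 249. miR-136-5p ran closest to miR-376a-5p (0.0850), miR-29c-5p (0.113) and miR-124-3p (0.114), with a median of 0.292. Both thus ran near miR-124-3p, the defining miRNA of neurons, and near a member of the miR-379 to miR-410 cluster.

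miR-127-3p ran closest to miR-22-5p (0.172), miR-674-5p (0.185) and let-7f-2-3p (0.191), with a median of 0.336. Within the group, miR-136-5p ranked 6 among the 249 for miR-434-3p, while miR-127-3p ranked 143. miR-433-3p ranked near the front for all 3, at 14 for miR-434-3p and 13 for both miR-136-5p and miR-127-3p, and miR-136-3p ranked 17 for miR-127-3p. Far back for all 3 was miR-431-5p, at 166 for miR-434-3p, 202 for miR-136-5p and 180 for miR-127-3p. miR-434-5p ranked 219 for miR-136-5p and 209 for miR-127-3p. These are descriptions over libraries that share the group difference and the scaling.

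Among lists of cell type markers, most of the leukocyte and microglia list passed an adjusted p of 0.05, and at most 1 marker of each other list did. At an unadjusted p under 0.05 were 7 of 13 neuron markers, 6 of them lower, and 1 of 4 oligodendrocyte markers. So were 4 of 5 leukocyte and microglia markers, 3 of 5 mural and fibroblast markers and 0 endothelial or red cell markers. Over all tested miRNAs the share was 24.4%, and 11.5% in the lower direction. The neuronal miR-124-3p stood at 209811 ± 22259 CPM in sham and 168631 ± 12682 CPM in pMCAO, at a log2 fold change of -0.32 (edgeR adjusted p = 0.0523), with no overlap. Of 13 tested neuron markers 1 fell, miR-132-3p, an activity-regulated miRNA, at -0.43 (edgeR adjusted p = 0.0412), and 0 rose, where 2.71% and 4.38% of all tested miRNAs did. The list median was -0.23, with 9 below 0 and 4 above, among them miR-138-5p at 0.21 (adjusted p = 0.431) and miR-129-5p at 0.32 (adjusted p = 0.132), both named after their values were seen. The planned markers miR-128-5p and miR-138-3p are not among the 13, because the counts carry them under separate hairpin names. Under those names miR-128-1-5p had -0.73 (edgeR adjusted p = 0.0700) and miR-128-2-5p 0.03. miR-138-1-3p had 0.04 and miR-138-2-3p 0.20. Summed, the 13 neuron markers took 35.3 to 40.9% of counts in sham and 33.7 to 37.9% in pMCAO. With total counts alone the median of all miRNAs was higher, so these directions are relative to TMM scaling.

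Of 4 oligodendrocyte markers 1 fell, miR-338-3p at -0.54 (edgeR adjusted p = 0.0453). Its other arm miR-338-5p had 0.01 (edgeR adjusted p = 0.992). miR-219a-5p and miR-219a-2-3p had -0.20 and -0.15 (edgeR adjusted p = 0.623 and 0.710). The list took 0.440 to 0.549% of counts in sham and 0.285 to 0.540% in pMCAO. Of 5 leukocyte and microglia markers 4 rose, miR-223-3p, miR-142a-3p, miR-142a-5p and miR-155-5p, by 2.31, 1.55, 1.46 and 2.79 on the log2 scale (edgeR adjusted p = 0.00544, 0.00569, 0.00569 and 0.00212). The most abundant of that list, miR-150-5p, had -0.25 (adjusted p = 0.370). The list took 0.233 to 0.361% of counts in sham and 0.329 to 0.730% in pMCAO.

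Of 5 mural and fibroblast markers 1 was called, miR-214-3p, higher by 1.68 (edgeR adjusted p = 0.0296). miR-199a-3p and miR-199a-5p, named after their values were seen, had 1.06 and 0.79 (edgeR adjusted p = 0.0547 and 0.0853). The abundant miR-145a-5p had -0.22, and in this list 3 were above 0 and 2 below. The list took 0.664 to 0.995% of counts in sham and 0.661 to 0.994% in pMCAO. The endothelial miR-126a-3p had -0.05 (edgeR adjusted p = 0.866) and miR-126a-5p 0.26 (edgeR adjusted p = 0.495). These 2 markers took 0.883 to 1.19% and 0.991 to 1.55% of counts with 0 called. The red cell miR-451a had 0.96 (edgeR adjusted p = 0.672), with 0 of 2 red cell markers called and shares of 0.0051 to 0.513% and 0.0666 to 0.488%. Its medians were 157 CPM in sham and 1414 CPM in pMCAO, and Sham 1 lay above every pMCAO library. The part of cell composition, blood or depth in the values of the Rtl1-antisense miRNAs was not tested.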

How the data were processed

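Per the labels and methods, small RNA was enriched with the miRVana kit and libraries were made with the Ion Total RNA-Seq Kit V2. The authors filtered reads by length, mapped them to mm10 with Bowtie and counted them on miRBase annotation with HTSeq, and deposited 1 table of raw counts per library. Mapping and counting settings are not given in the sources used here, so the treatment of reads that fit several hairpins is unknown. The tables hold miRNA names alone. Without molecular identifiers, PCR copies stay in the counts, and intervals cover counting error only. In 25 pairs of libraries of the same group, counts differed by more than sampling noise (smallest chi-square divided by its degrees of freedom, 20.4).

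The tests ran in edgeR 4.0.16, with limma 3.58.1, under R 4.3.3: filterByExpr (minimum count 10, minimum total 15), TMM, glmQLFit and glmQLFTest without covariates, and Benjamini-Hochberg adjustment over 479 miRNAs at 0.05. The SE was obtained from the log2 fold change and its F statistic. Ratios (0.5 counts added) were compared by exact permutation over 462 arrangements. The scripts were tested on simulated data. DESeq2 1.42.0, other scalings, filters and left-out libraries were alternatives. The study used DESeq2. Overlap of groups under other scalings was added after seeing the data.

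Replicate numbers were not treated as pairs. Deviations of same-numbered libraries correlated at -0.08 to 0.23, over 0.1 in 3 of 5 pairs, and so few weak values cannot settle whether libraries were paired. The members and lists were chosen with earlier results of these data known. Named are all members, all names of the Rtl1 stretch, the 3 most abundant neighbours and any called, the most abundant and any called marker of each list, and the 3 miRNAs closest to each of the 3 most abundant members.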

Additional observations from a re-analysis of the deposited data

Results flagged for a closer look

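In 52 groups of values the highest or lowest library was compared with the others by Dixon's test, and 2 stood apart, where chance gives about 1 in 20, or 2.6. In pMCAO 5 the log2 3p to 5p ratio of miR-434 was 4.86, against 3.14 to 3.62 in the other 4 pMCAO libraries, with miR-434-5p low at 343 CPM and miR-434-3p at 9968 CPM. In Sham 4 the Rtl1-antisense miRNAs took 2.58% of counts, against 2.67 to 2.69% in the other 5 sham libraries.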

How the results depend on the processing

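In each of the 8 alternative fits and the 11 that left out 1 library, 0 of the 10 members were called, while calls over all miRNAs went from 34 to 16 without Sham 3, 17 without pMCAO 2, 19 without Sham 2 or Sham 4, 20 without Sham 6, 21 without pMCAO 5 and 18 with at least 10 counts in every library. Among the other domain miRNAs the calls went from 0 to 1 with DESeq2 and with edgeR's robust fit. Calls split 21 higher to 13 lower with TMM, 23 to 4 with upper-quartile scaling and 43 to 1 with total counts alone. Signs turned for miR-433-5p (-0.0019 with DESeq2's size factors, -0.0085 with DESeq2, -0.0291 with no filter), miR-431-3p (-0.0132 with no filter) and miR-127-5p (0.0183 with at least 10 counts in every library). With total counts alone miR-433-3p had 0.0344, miR-127-5p 0.163 and miR-127-3p 0.0849. The cause was not tested beyond the shift of the median.

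With the replicate number as a block, miR-431-3p had -0.0655 and miR-433-5p -0.0408, and 0 members were called and 22 miRNAs in all. Whether the numbers pair the libraries is not known, and 1 of 5 correlated best with its own number. Leaving out 1 library at a time, log2 fold changes ran from -0.0770 to 0.140 for miR-431-3p, -0.111 to 0.150 for miR-433-5p and -0.0547 to 0.0417 for miR-127-5p. Differences in arm ratio ran from -0.123 to 0.0317 for miR-127, -0.0691 to 0.0615 for miR-136 and -0.322 to 0.107 for miR-434. Differences against miR-127-3p ran from -0.0317 to 0.123 for miR-127-5p, -0.0118 to 0.277 for miR-431-3p, -0.137 to 0.00567 for miR-433-3p, -0.0154 to 0.254 for miR-433-5p and -0.326 to 0.0117 for miR-434-5p. The log2 fold changes of miR-434-3p (-0.37 to -0.25), miR-136-5p (-0.28 to -0.19), miR-136-3p (-0.32 to -0.20), miR-434-5p (-0.34 to -0.0417, the last without pMCAO 5) and miR-431-5p (0.22 to 0.42) kept their sign in these fits. Over the 8 other alternatives they reached -0.13, -0.0758, -0.0906, -0.0716 and 0.48, each with total counts alone. Depth limits miR-433-5p and miR-431-3p most, with 19 and 25 counts in their shallowest libraries.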
